A study of Mus musculus with 4 samples.

Results

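The transcripts of 38 genes for DNA replication and of the E2F programme were followed in cultured adipose cells of the mouse. They were picked by gene symbol from the 32285 genes listed, and all 38 were found in each of 4 single-cell RNA sequencing libraries. Each library was 1 condition. The iWAT_DFAT and eWAT_DFAT libraries held de-differentiated fat (DFAT) cells, which grow out of mature adipocytes that float up to the roof of a filled flask (ceiling culture), from inguinal (iWAT) and epididymal (eWAT) white adipose tissue. The iWAT_ASPC and eWAT_ASPC libraries held stromal vascular fraction (SVF) cells of the same depots after primary culture, named for the adipose stem and progenitor cells (ASPCs) among them. The source, per the study, was chow-fed male C57BL/6J mice. No age or number of animals was found for these libraries, and the cells were expanded in dishes, so they model growing cultures rather than tissue.

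DNA is copied once in each cell cycle, in S phase. Before it, CDC6 and CDT1 load the MCM helicase ring on replication origins (licensing), and cyclin E with its kinase helps to fire them. CDC45 and the GINS complex join the ring to make the active helicase, primase and polymerases build new strands behind it, and the PCNA clamp holds the polymerases on DNA. E2F transcription factors switch on most of these genes when cells commit to divide. Histone messages such as *Hist1h1b*, which codes for a linker histone, accumulate while DNA is being copied, and a high count of it was used to pick out such cells. These messages mostly lack a poly(A) tail, so a library primed on poly(A) sees only some of them.

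Promoters were read for 31 of the 38 genes from RefSeq (GRCm38.p6), as windows of 250 bases before and 50 bases after the start of the gene. The letters searched for E2F were TTCCCGC and TTGGCGC, and then also TTCGCGC and the variant TTGCCGC, on both strands, some of which overlap where 2 sites face each other. At least 1 match was found in 20 of the 31 windows (64.5%), against 10.9% of 27025 genes and 20.2% of the 8536 genes with a window and at least 5 CPM (UMIs of the gene in 1000000 UMIs of the sum). Since the list was named for E2F targets, this share is a description. CCAAT was found in 58.1% of the members' windows, 41.1% of all windows and 43.0% of those of genes at 5 or more CPM. The cell cycle element CHR, searched as TTTGAA and TTCGAA, was found in 16.1%, 21.7% and 16.4%. Of 8 mitosis genes with a window, 1 held the E2F letters, all 8 held CCAAT and 6 held CHR.

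Among the genes with a window, the sequence is printed for the 3 with the largest and the 2 with the smallest rise in *Hist1h1b*-high cells described further on, and for the pair with the most E2F matches, *Mcm6* and *Pola1*, which were added after the counts were seen. Bases within an annotated exon and those after the start are left out, and capitals mark E2F matches.
Clspn, chr4:126556730-126556934, plus strand: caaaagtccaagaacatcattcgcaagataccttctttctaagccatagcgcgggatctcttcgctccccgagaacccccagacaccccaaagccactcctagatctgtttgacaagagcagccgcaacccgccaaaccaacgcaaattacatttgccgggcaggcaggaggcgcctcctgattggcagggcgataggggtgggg
Mcm10, chr2:5012792-5013041, minus strand: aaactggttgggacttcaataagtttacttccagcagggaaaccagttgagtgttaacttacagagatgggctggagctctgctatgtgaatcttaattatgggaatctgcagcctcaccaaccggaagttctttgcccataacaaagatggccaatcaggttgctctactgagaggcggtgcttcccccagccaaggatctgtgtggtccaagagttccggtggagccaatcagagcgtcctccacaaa
Cdc6, chr11:98907982-98908150, plus strand: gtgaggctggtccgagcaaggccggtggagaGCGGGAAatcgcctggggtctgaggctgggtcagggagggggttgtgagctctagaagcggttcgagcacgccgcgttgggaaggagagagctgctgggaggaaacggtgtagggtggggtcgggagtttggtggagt
Dut, chr2:125247402-125247481, plus strand: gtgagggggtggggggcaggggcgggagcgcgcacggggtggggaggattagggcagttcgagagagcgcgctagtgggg
Rrm1, chr7:102441445-102441694, plus strand: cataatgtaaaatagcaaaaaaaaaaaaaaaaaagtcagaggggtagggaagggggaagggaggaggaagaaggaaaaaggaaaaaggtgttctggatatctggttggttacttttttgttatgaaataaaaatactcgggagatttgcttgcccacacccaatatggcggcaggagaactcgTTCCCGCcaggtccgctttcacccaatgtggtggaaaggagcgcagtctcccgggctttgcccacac
Mcm6, chr1:128359706-128359955, minus strand: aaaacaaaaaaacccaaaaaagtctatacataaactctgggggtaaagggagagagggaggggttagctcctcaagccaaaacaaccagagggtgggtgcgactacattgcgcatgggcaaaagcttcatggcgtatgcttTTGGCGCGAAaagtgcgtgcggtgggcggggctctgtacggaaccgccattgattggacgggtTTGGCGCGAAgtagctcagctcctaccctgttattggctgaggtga
Pola1, chrX:93632156-93632405, minus strand: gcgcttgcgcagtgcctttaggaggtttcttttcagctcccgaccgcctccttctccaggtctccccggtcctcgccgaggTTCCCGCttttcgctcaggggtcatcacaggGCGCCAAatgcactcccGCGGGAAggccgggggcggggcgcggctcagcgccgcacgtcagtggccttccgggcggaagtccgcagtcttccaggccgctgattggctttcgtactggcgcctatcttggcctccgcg
*Cdc6* and *Rrm1* had 1 match each, ending 131 and 60 bases before the RefSeq start. In the gene annotation (GRCm38) *Cdc6* begins further upstream, at chr11:98907801, and *Dut* at chr2:125247190, so their printed stretches lie in introns of those longer gene models. *Mcm6* had 4 matches before the start, in 2 pairs that overlap, and *Pola1* had 3. The printed stretches of *Clspn*, *Mcm10* and *Dut* held none, and *Clspn* had 1 match within the 50 bases after the start. Matches were thus seen at both ends of the order by size of rise, and no site was tested.

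Cells were the droplet barcodes with 5000 to 75000 unique molecular identifiers (UMIs, 1 per captured RNA molecule), 200 to 7500 genes and under 10% mitochondrial UMIs. This left 7629 cells in iWAT_DFAT, 6464 in eWAT_DFAT, 7424 in iWAT_ASPC and 6745 in eWAT_ASPC, with a median of 22111 to 27617 UMIs per cell. Between 13 and 20 cell barcodes were shared by any pair of libraries, at most 0.297% of a library. At least 1 UMI of *Pdgfra*, a marker of ASPCs, was seen in 73.6% to 93.7% of cells. Summed over 8 ASPC markers the level was 2061 CPM in eWAT_DFAT and 5791 to 6419 CPM in the other libraries. Summed over 5 adipocyte markers it was 66.5 CPM in eWAT_DFAT, 19.0 CPM in iWAT_DFAT, 1.22 CPM in eWAT_ASPC and 0.416 CPM in iWAT_ASPC, with *Lep* at 0 in all 4. Immune markers summed to between 2.01 and 46.6 CPM, the highest in eWAT_ASPC, where *Lyz2* alone gave 40.6 CPM. The 4 mesothelial markers summed to between 5.80 and 70.8 CPM. In iWAT_ASPC, at 70.8 CPM, *Krt19* alone gave 70.7 CPM and the other 3 were near 0, whereas all 4 were above 5 CPM in eWAT_ASPC (53.6 CPM in sum).

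Every one of the 38 genes was higher in cells with at least 3 *Hist1h1b* UMIs (*Hist1h1b*-high cells) than in cells with none, in 4 of 4 libraries. Of 11014 genes at 5 or more CPM, 3715 were higher in all 4 libraries. *Hist1h1b*-high cells made up 18.9% of iWAT_DFAT (95% interval 18.1% to 19.8%, exact binomial), 27.9% of eWAT_DFAT (26.8% to 29.0%), 18.7% of iWAT_ASPC (17.8% to 19.6%) and 20.7% of eWAT_ASPC (19.7% to 21.7%). These intervals cover the counting of cells within 1 library only, and the shares moved further with the depth of the cells kept, to 26.3% of iWAT_DFAT and 31.7% of eWAT_DFAT at 20000 to 40000 UMIs. With counts summed per library and class and the library as a block, all 38 were called at least 2-fold higher by edgeR's quasi-likelihood test, at adjusted p of 0.000136 or less. The test was against no difference, and the 2-fold limit was applied to the estimated ratio. Of all 16911 genes tested, 3.40% were called at least 2-fold higher, 17.5% higher by any amount and 23.0% lower. The members' median log2 ratio was 2.17, with a range of 1.13 to 3.40, while that of 11014 genes at 5 or more CPM was 0.00072. By library the members' median was 2.16 in iWAT_DFAT, 1.76 in eWAT_DFAT, 2.01 in iWAT_ASPC and 2.50 in eWAT_ASPC. The p-values measure the spread among the 4 libraries, which are different conditions. *Hist1h1b*-high cells were also deeper, at a median of 29692 to 33250 UMIs against 20022 to 25842. In cells of 20000 to 40000 UMIs only, all 38 were again called. After every cell was thinned to 5000 UMIs, 36 were called, with the class reset to 1 or more *Hist1h1b* UMIs left. Adipocyte markers summed to less in *Hist1h1b*-high cells than in cells with none in each library, most in eWAT_DFAT (14.9 against 111 CPM), and immune markers of iWAT_ASPC summed to more in *Hist1h1b*-high cells (22.3 against 5.50 CPM), while those of eWAT_DFAT summed to less (2.60 against 6.66 CPM). Endothelial (8.33 against 28.2 CPM) and pericyte markers (4.83 against 12.8 CPM) were also lower in the *Hist1h1b*-high cells of eWAT_DFAT. So were ASPC (4733 against 6632 CPM) and endothelial markers (2.85 against 6.36 CPM) in those of iWAT_DFAT. Glial markers were lower in those of iWAT_ASPC (10.2 against 21.3 CPM), while endothelial markers were higher in those of eWAT_ASPC (23.8 against 17.5 CPM). Their part in the result was not tested.

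**Figure D1:**
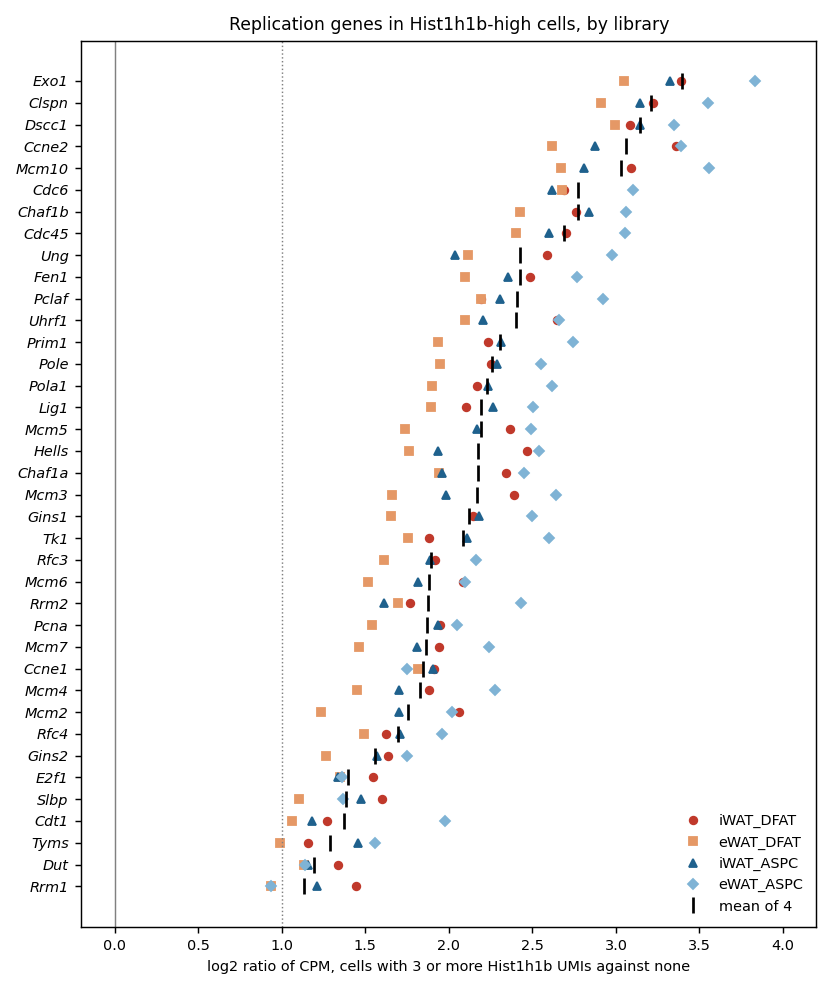
Each row is 1 gene and the horizontal axis is the log2 ratio of CPM in Hist1h1b-high cells against cells without Hist1h1b, with 1 symbol per library and a black tick at the mean of 4. The dotted line marks 2-fold. All means lie to its right, from 1.13 for Rrm1 to 3.40 for Exo1.

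The 3 largest rises were those of *Exo1*, *Clspn* and *Dscc1*. *Exo1*, an exonuclease of repair, had 32.6 CPM in the *Hist1h1b*-high cells of iWAT_DFAT, 25.5 in eWAT_DFAT, 25.1 in iWAT_ASPC and 19.5 in eWAT_ASPC, against 3.11, 3.08, 2.50 and 1.37 CPM in cells with none. Its lowest value in *Hist1h1b*-high cells lay above its highest in cells with none, and the mean log2 ratio was 3.40 ± 0.32 (SD, n = 4 libraries), a 10.5-fold difference (adjusted p = 5.53e-07, edgeR). *Clspn* codes for claspin, which links stalled forks to the checkpoint kinase. Its level in *Hist1h1b*-high cells was 116, 81.1, 93.6 and 71.8 CPM, listed by library as for *Exo1*, against 12.4, 10.8, 10.6 and 6.12 CPM, a mean log2 ratio of 3.21 ± 0.27 (SD, n = 4 libraries; adjusted p = 3.04e-07, edgeR). *Dscc1*, a subunit of an alternative clamp loader, went from between 1.22 and 1.78 CPM to between 12.4 and 15.2 CPM, an 8.83-fold difference. After thinning to 5000 UMIs, *Exo1* had a UMI in 11.5% to 15.2% of *Hist1h1b*-high cells and in 0.647% to 1.47% of cells with none.

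Regulators of the entry into S phase were all called at least 2-fold higher, by different amounts. *Ccne2*, cyclin E2, had 36.4 CPM in the *Hist1h1b*-high cells of iWAT_DFAT, 28.1 in eWAT_DFAT, 35.2 in iWAT_ASPC and 22.2 in eWAT_ASPC, against 3.53, 4.57, 4.78 and 2.11 CPM, a mean log2 ratio of 3.06 ± 0.38 (SD, n = 4 libraries). Its paralog *Ccne1* rose by 1.84 ± 0.08 on the log2 scale, from between 9.35 and 14.9 CPM to between 31.4 and 52.5 CPM. *E2f1*, an activating E2F factor, was among the 6 smallest rises at 1.40 ± 0.10 (SD, n = 4 libraries), with 26.4 to 39.0 CPM against 10.4 to 15.5 CPM. *Slbp*, which binds the stem-loop of histone messages, rose by 1.39 ± 0.21. For each of these 4 genes the lowest value in *Hist1h1b*-high cells lay above the highest in cells with none. Such a gap, also seen for *Exo1*, was not counted over all genes. Differences between the genes were not tested.

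Both licensing genes were called as well. *Cdc6* was 6.83-fold higher in *Hist1h1b*-high cells, at 21.2, 19.4, 16.8 and 16.5 CPM against 3.28, 3.02, 2.73 and 1.92 CPM. *Cdt1* was 2.59-fold higher, at 25.9, 22.5, 16.7 and 19.6 CPM against 10.7, 10.8, 7.37 and 4.98 CPM, with the largest adjusted p of the members (0.000136, edgeR).

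All 10 helicase genes were called at least 2-fold higher, with a median log2 ratio of 2.00. *Mcm10*, which helps to activate the helicase, led them at 3.03 ± 0.39 (SD, n = 4 libraries), with 32.3, 21.0, 18.7 and 16.6 CPM against 3.79, 3.29, 2.66 and 1.40 CPM. *Cdc45* followed at 2.69 ± 0.27. The 6 subunits of the ring had means of 1.75 ± 0.38 for *Mcm2*, 2.17 ± 0.43 for *Mcm3*, 1.83 ± 0.35 for *Mcm4*, 2.19 ± 0.33 for *Mcm5*, 1.88 ± 0.28 for *Mcm6* and 1.86 ± 0.32 for *Mcm7* (SD, n = 4 libraries). *Mcm5* was above *Mcm2* and *Mcm3* above *Mcm4* in 4 of 4 libraries, and these differences between genes were not tested. The GINS subunits *Gins1* and *Gins2* rose by 2.12 and 1.55, the latter the smallest of the group.

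At the fork itself, the 3 polymerase and primase genes *Prim1*, *Pole* and *Pola1* rose by 2.30, 2.26 and 2.23 on the log2 scale. *Fen1*, which trims the flaps of lagging strand fragments, and *Lig1*, which seals them, rose by 2.43 ± 0.28 and 2.19 ± 0.26. *Pcna* had 191, 140.0, 175 and 129 CPM in *Hist1h1b*-high cells against 49.4, 48.2, 45.8 and 31.2 CPM, a 3.65-fold difference. *Pclaf*, a PCNA-binding factor, was at 380.1, 336, 379 and 292 CPM against 83.2, 73.3, 76.4 and 38.5 CPM, a 5.30-fold difference. The clamp loader subunits *Rfc3* and *Rfc4* rose by 1.90 and 1.70. Genes that rebuild chromatin on the copied DNA, *Chaf1a*, *Chaf1b*, *Uhrf1* and *Hells*, rose by 2.17 to 2.77. *Ung*, which removes uracil from DNA, rose by 2.43 ± 0.44.

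The 3 smallest rises were all among genes of nucleotide supply. The group's median log2 ratio was 1.29, against 2.17 for all members. *Rrm1*, the large subunit of ribonucleotide reductase, was at 190.0, 189, 203 and 201 CPM in *Hist1h1b*-high cells and still at 69.8, 98.5, 87.7 and 105 CPM in cells with none, a 2.19-fold difference. *Dut*, which removes dUTP, rose 2.28-fold and *Tyms*, thymidylate synthase, 2.44-fold. The small subunit *Rrm2* rose by 1.88 ± 0.37 and thymidine kinase *Tk1* by 2.09 ± 0.37 on the log2 scale. *Rrm1* had a UMI in 59.0% to 61.1% of thinned *Hist1h1b*-high cells and in 23.7% to 37.4% of thinned cells with none.

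Droplets with 1 to 100 UMIs hold free RNA. *Hist1h1b* itself was at 61.8 to 153 CPM there. The 38 genes summed to between 1102 and 1556 CPM there, above their sum of 602 to 895 CPM in cells with no *Hist1h1b* UMI and below the 2453 to 3271 CPM of *Hist1h1b*-high cells. Each of the 38 was higher in free RNA than in cells with none, and lower than in *Hist1h1b*-high cells, in all 4 libraries. Any mixture of these classes lies between them. Over all kept cells the 38 genes summed to 1127 to 1595 CPM, near their sum in free RNA. The share of all genes in this order was not counted. The part of free RNA in the levels of cells with none was not tested.

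The summed level of the 38 genes was higher at each step of the *Hist1h1b* count. In iWAT_DFAT it was 833 CPM in cells with none, 1561 CPM with 1 to 2 UMIs, 2512 CPM with 3 to 9 and 3547 CPM with 10 or more. The same order held in eWAT_DFAT (895, 1420, 2195 and 3084 CPM), iWAT_ASPC (834, 1625, 2694 and 3188 CPM) and eWAT_ASPC (602, 1054, 1780 and 3028 CPM). Between 0.582% and 1.69% of cells with none reached the median of the *Hist1h1b*-high cells of their library. From the other side, the lower quartile of *Hist1h1b*-high cells was lowest in eWAT_ASPC, at 1658 CPM per cell. It was 2716 CPM in iWAT_DFAT, 2123 CPM in eWAT_DFAT and 2446 CPM in iWAT_ASPC. From 3 to 9 UMIs to 10 or more, 35 of the 38 genes were higher in 4 of 4 libraries, and the median log2 ratio over all 38 was 0.50. The other 3 were *Ung* (0.04 ± 0.31, SD, n = 4 libraries), *Cdc6* (−0.06 ± 0.27) and *Cdt1* (−0.11 ± 0.16), so the licensing pair had mean ratios just below 0 in the cells richest in *Hist1h1b*. These are values without a test, and the step from 3 to 9 UMIs to 10 or more was not computed over all genes. Cells with 10 or more *Hist1h1b* UMIs were also deeper in each library. Their medians were 30205 to 34125 UMIs, against 28470.5 to 32348.5 UMIs with 3 to 9. The step was not repeated at matched depth.

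**Figure D2:**
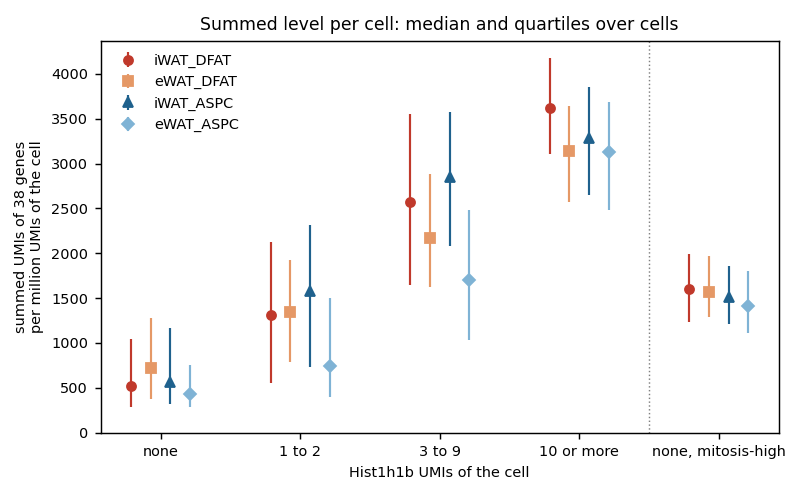
The vertical axis is the summed UMIs of the 38 genes in 1000000 UMIs of a cell, with the median and quartiles over the cells of each library, by the Hist1h1b count of the cell. The rightmost group holds cells with no Hist1h1b UMI that were high in mitosis genes. Medians rise from left to right over the first 4 groups in each library.

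Cells without *Hist1h1b* were split by the level of 10 mitosis genes (*Ccnb1*, *Ccnb2*, *Cdc20*, *Plk1*, *Cenpf*, *Aurka*, *Kif20a*, *Cenpe*, *Ube2c* and *Tpx2*), none of which is a member. Cells with 1000 or more CPM from these genes (mitosis-high) were 10.3% of iWAT_DFAT, 9.05% of eWAT_DFAT, 12.9% of iWAT_ASPC and 6.06% of eWAT_ASPC. Against the remaining cells without *Hist1h1b*, 33 of 38 members were called higher and 1 lower by edgeR at an adjusted p under 0.05. Over 16334 genes, 20.3% were higher and 27.2% lower. The members' median log2 ratio was 1.38, against 0.0072 over 11139 genes at 5 or more CPM. The mitosis genes themselves also had more UMIs in *Hist1h1b*-high cells, at 721 to 978 CPM, than in all cells without *Hist1h1b*, at 297 to 543 CPM, so the classes overlap in these genes. Other markers moved with the class. In eWAT_DFAT immune markers summed to 24.9 CPM in mitosis-high and 3.21 CPM in the remaining cells, adipocyte markers to 21.8 and 128 CPM and endothelial markers to 4.44 and 32.7 CPM. Immune markers were at 83.5 and 40.4 CPM in eWAT_ASPC, 8.36 and 4.82 CPM in iWAT_ASPC and 2.47 and 1.83 CPM in iWAT_DFAT, and adipocyte markers were lower in mitosis-high cells in all 4 libraries. Their part in the result was not tested.

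*Pclaf* led the mitosis-high rise, at 247, 219.9, 246 and 180.4 CPM in iWAT_DFAT, eWAT_DFAT, iWAT_ASPC and eWAT_ASPC against 48.6, 45.6, 35.7 and 24.2 CPM in the remaining cells. Its mean log2 ratio of 2.58 ± 0.31 (SD, n = 4 libraries; adjusted p = 1.73e-08, edgeR) stood beside 2.40 ± 0.35 in *Hist1h1b*-high cells against all cells with none. *Clspn* (2.55 ± 0.36), *Mcm10* (2.54 ± 0.46) and *Tk1* (2.53 ± 0.51) came next. For *Tk1* the mitosis-high cells held 91.9, 64.2, 83.7 and 62.7 CPM and the remaining cells 16.7, 18.0, 11.6 and 7.98 CPM.

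The 5 members that were not called higher were both cyclin E genes, *Cdc6*, *Slbp* and *Ung*. *Ccne2* was at 3.19, 4.17, 4.73 and 3.59 CPM in mitosis-high cells and at 3.61, 4.64, 4.80 and 1.96 CPM in the remaining cells, a mean log2 ratio of 0.14 ± 0.50 (SD, n = 4 libraries; adjusted p = 0.953, edgeR). *Ccne1* had −0.18 ± 0.40 (adjusted p = 0.183, edgeR), *Cdc6* 0.28 ± 0.81 (adjusted p = 0.486, edgeR) and *Slbp* 0.32 ± 0.23 (adjusted p = 0.0548, edgeR). *E2f1* rose by 0.30 ± 0.22, just under the threshold (adjusted p = 0.0460, edgeR), while *Cdt1* rose by 1.14 ± 0.56. *Ung* was the only member called lower. It was at 0.360, 1.39, 1.37 and 0.644 CPM in mitosis-high cells, from 7, 20, 34 and 7 UMIs, and at 1.90, 2.41, 2.80 and 1.46 CPM in the remaining cells, a mean log2 ratio of −1.29 ± 0.69 (SD, n = 4 libraries; adjusted p = 0.00526, edgeR).

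**Figure D3:**
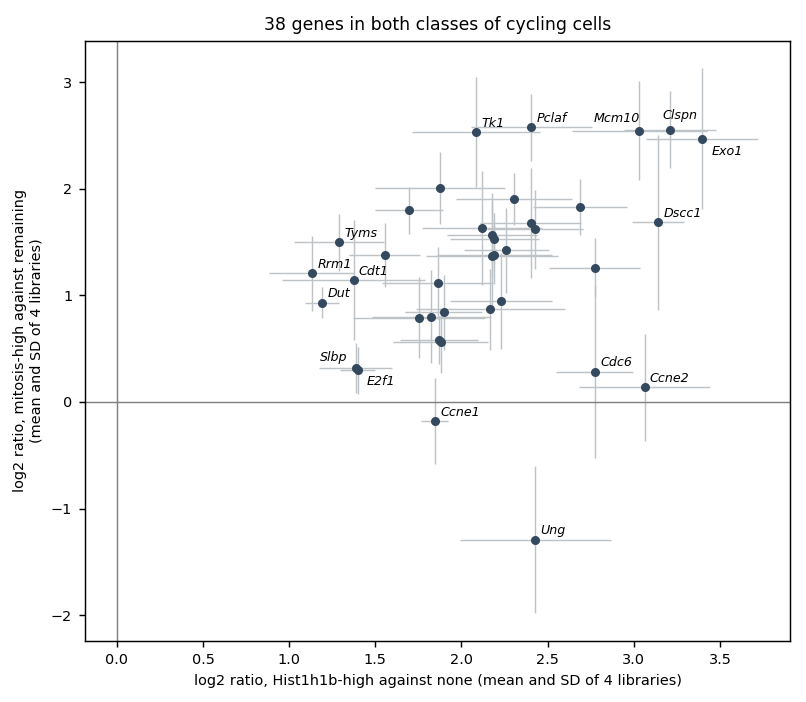
Each point is 1 of 38 genes, with the mean and SD over 4 libraries of its log2 ratios. The horizontal ratio is of Hist1h1b-high cells against all cells without Hist1h1b. The vertical ratio is of mitosis-high cells against the remaining cells without Hist1h1b, so the baselines differ. Ung, at 2.43 and −1.29, lies below zero on the vertical axis, while Pclaf lies at 2.40 and 2.58.

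Set directly against mitosis-high cells, a comparison added after the values were seen, *Hist1h1b*-high cells had the higher mean for all 38 genes in 4 of 4 libraries, with a median log2 ratio of 1.14. Of 11139 genes at 5 or more CPM, 2876 were higher in all 4 libraries. Among the 38 members, 34 were called higher by edgeR at an adjusted p under 0.05, against 13.3% of 16334 genes. The 4 that were not called were *Tyms* (0.14 ± 0.10, SD, n = 4 libraries; adjusted p = 0.325, edgeR), *Rrm1* (0.21 ± 0.07; adjusted p = 0.232), *Tk1* (0.35 ± 0.07; adjusted p = 0.118) and *Cdt1* (0.46 ± 0.20; adjusted p = 0.0585). The largest differences were those of *Ung* (3.58 ± 0.91), *Ccne2* (2.94 ± 0.39), *Cdc6* (2.54 ± 0.60) and *Ccne1* (2.00 ± 0.40).

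The wider machinery was followed with 55 further replication, repair and E2F genes. All 55 were called higher in *Hist1h1b*-high cells, against 17.5% of all genes, and 45 of them at least 2-fold, against 3.40%, with a median log2 ratio of 1.66. The largest rises were those of *Rad51ap1* (3.52 ± 0.35, SD, n = 4 libraries), *E2f8* (3.36 ± 0.30) and *Brca1* (3.20 ± 0.50), and the smallest those of *E2f3* (0.36 ± 0.06), *Topors* (0.47 ± 0.06) and *Pole3* (0.48 ± 0.08). In mitosis-high cells 50 of the 55 were called higher, against 20.3% of all genes, and 0 lower by the same test. Directly against mitosis-high cells, 47 were called higher in *Hist1h1b*-high cells, against 13.3%. *Ccna2*, cyclin A2 (−0.70 ± 0.15, SD, n = 4 libraries; adjusted p = 0.00243, edgeR), and *Dbf4*, the activator of the origin-firing kinase CDC7 (−0.69 ± 0.08; adjusted p = 4.31e-05), were lower there in 4 of 4 libraries, and *Rpa3* (−0.07) and *Pole3* (−0.03) had means below 0.

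Between the libraries, eWAT_ASPC stood lowest. Over all kept cells the 38 genes summed to 1536 CPM in iWAT_DFAT, 1595 CPM in eWAT_DFAT, 1429 CPM in iWAT_ASPC and 1127 CPM in eWAT_ASPC. The eWAT_ASPC library had the lowest level of 34 of the 38 genes, and the DFAT libraries had the highest level of 34. The share of all genes in this order was not counted. Nor was it counted for the members higher or lower by any amount in the comparisons that follow. With 1 library per condition no test was made, and the intervals that follow cover counting error only. The 4 comparisons share libraries, so their values are not independent, and a larger share of cycling cells and more RNA per cycling cell are both part of such a sum. Where ratios are given within *Hist1h1b*-high cells, the libraries were not matched for the *Hist1h1b* counts of those cells.

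**Figure D4:**
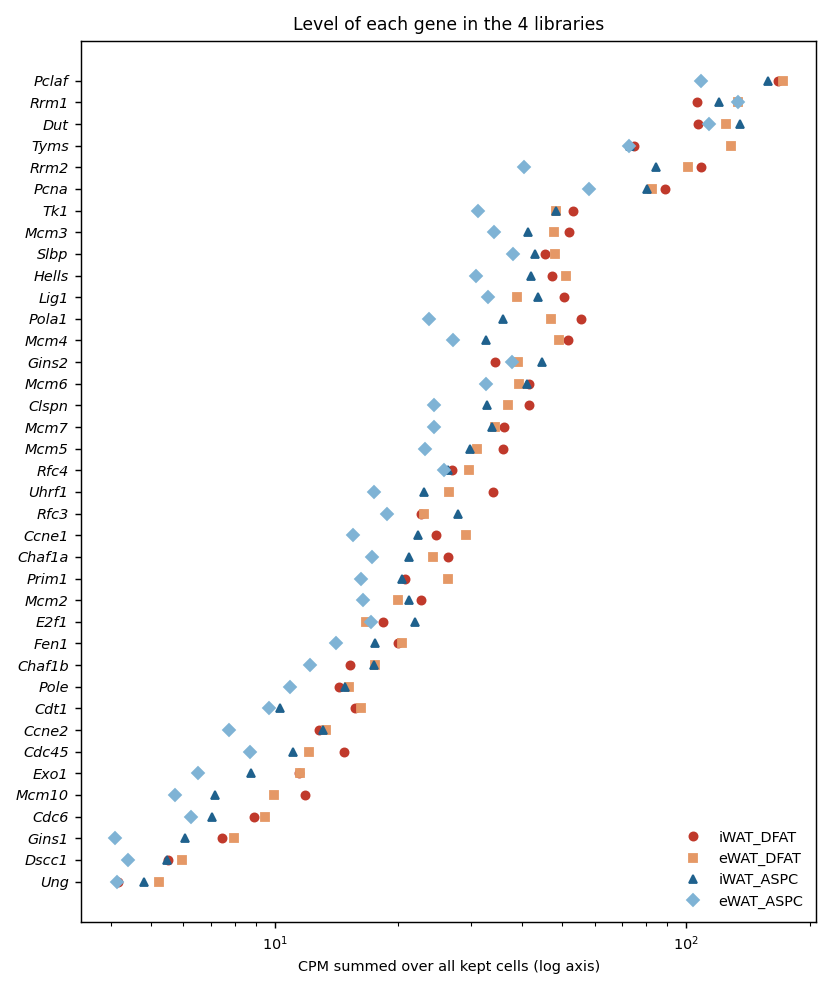
Each row is 1 gene and the horizontal axis (log scale) is its CPM over all kept cells, with 1 symbol per library. The eWAT_ASPC symbol is leftmost for 34 of the 38 genes, and the share over all genes was not counted. Rows are not corrected for transcript length.

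In the epididymal depot, 37 of 38 members were higher in eWAT_DFAT than in eWAT_ASPC, with a median log2 ratio of 0.52. The median was 0.07 over the 10298 genes for which the higher of both libraries had 5 or more CPM. Of the members, 17 reached 1.5-fold, against 15.0% of these genes. No member was 1.5-fold lower, against 13.1%. *Rrm2* differed most, at 100.9 CPM against 40.5 CPM, a log2 ratio of 1.32 (95% interval 1.28 to 1.36, exact conditional binomial). *Pola1* was at 47.0 against 23.7 CPM (0.99, 0.94 to 1.04). At the other end *E2f1* was at 16.7 against 17.1 CPM (−0.04, −0.11 to 0.03) and *Rrm1* at 133.6 against 133.5 CPM (0.00, −0.02 to 0.03). Within *Hist1h1b*-high cells the members' median ratio was 0.10, and within cells with none it was 0.72. Cells of eWAT_DFAT had 3 or more *Hist1h1b* UMIs more often (27.9% against 20.7%) and were mitosis-high more often (9.05% against 6.06%). With TMM scaling in place of total UMIs the median over all cells was 0.34. Adipocyte markers (66.5 against 1.22 CPM) and ASPC markers (2061 against 5791 CPM) also differed between these libraries. So did immune markers (4.56 against 46.6 CPM) and mesothelial markers (6.68 against 53.6 CPM). The part of these markers in the result was not tested.

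In the inguinal depot, the members' median log2 ratio of iWAT_DFAT to iWAT_ASPC was 0.14, against 0.09 over 10426 genes, and 29 of 37 members were higher. *Mcm10* (11.9 against 7.17 CPM, log2 ratio 0.73, 95% interval 0.63 to 0.82), *Mcm4* (51.7 against 32.7 CPM, 0.66, 0.61 to 0.71), *Pola1* and *Cdt1* were the 4 that reached 1.5-fold, against 18.4% of 10426 genes, and 0 were 1.5-fold lower, against 10.1%. *Gins2* (34.3 against 44.6 CPM, −0.38, −0.42 to −0.33) and *Dut* (107 against 135 CPM, −0.34, −0.36 to −0.31) lay lowest. The share of members past 1.5-fold (10.8% higher) was below that of all genes in both directions. With TMM scaling the members' median was 0.06, and within *Hist1h1b*-high cells and cells with none it was 0.13 and 0.06. *Pola1*, at 0.63, has 318576 bases of intron. Genes in the top decile of intron length had a median ratio of 0.33 here, and the files of iWAT_ASPC name another counting version. That decile was also at 0.34 for iWAT_DFAT to eWAT_DFAT, whose files name the same version. It was at 0.15 for eWAT_DFAT to eWAT_ASPC, where *Pola1* was at 0.99. Adipocyte (19.0 against 0.416 CPM) and glial markers (3.91 against 17.7 CPM) also differed. The part of these in the result was not tested.

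Between the DFAT libraries the members' median was −0.03, against 0.09 over 10384 genes, and 17 members were higher and 21 lower in iWAT_DFAT. *Tyms* was the only member past 1.5-fold, at 74.7 against 129 CPM (log2 ratio −0.79, 95% interval −0.82 to −0.76), where 9.10% of 10384 genes were 1.5-fold lower and 17.6% higher. *Prim1* was next at −0.35 (−0.41 to −0.29), and *Lig1* (0.38, 0.34 to 0.42) and *Uhrf1* (0.36, 0.30 to 0.41) were the highest. Within *Hist1h1b*-high cells the members' median was 0.34 in favour of iWAT_DFAT, whereas iWAT_DFAT held fewer such cells (18.9% against 27.9%). *Tyms* stayed lower within *Hist1h1b*-high cells of iWAT_DFAT, at a log2 ratio of −0.58. ASPC markers (5991 against 2061 CPM), adipocyte markers (19.0 against 66.5 CPM) and endothelial markers (6.14 against 17.7 CPM) differed between these libraries. Their part in the result was not tested.

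Between the cultured SVF libraries the members' median was 0.37, against 0.05 over 10135 genes, and 36 of 37 members were higher in iWAT_ASPC. *Rrm2* (84.7 against 40.5 CPM, log2 ratio 1.07, 95% interval 1.03 to 1.11) and *Ccne2* (13.1 against 7.73 CPM, 0.76, 0.67 to 0.85) led the 4 that reached 1.5-fold, against 7.25% of 10135 genes, and no member was 1.5-fold lower, against 7.43%. *Rrm1* alone was lower (120.2 against 133.5 CPM, −0.15, −0.18 to −0.13), and *Tyms* was at 0.01 (−0.02 to 0.04). The members' median was 0.27 within *Hist1h1b*-high cells and 0.65 within cells with none. Cells of iWAT_ASPC had 3 or more *Hist1h1b* UMIs less often (18.7% against 20.7%) and were mitosis-high more often (12.9% against 6.06%). Free RNA held *Hist1h1b* at 61.8 CPM in iWAT_ASPC and 153 CPM in eWAT_ASPC. Immune (9.07 against 46.6 CPM) and glial markers (17.7 against 1.61 CPM) differed too, as did *Msln*, *Upk3b* and *Lrrn4* (near 0 against 11.8 to 19.6 CPM), and their part in the result was not tested. The files of iWAT_ASPC name another version of the counting program than the other 3. Over all genes, those in the top decile of intron length had a median log2 ratio to eWAT_ASPC of 0.15 and those in the bottom decile −0.01, against 0.15 to 0.34 and −0.06 to −0.02 in the other 3 comparisons.

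**Figure D5:**
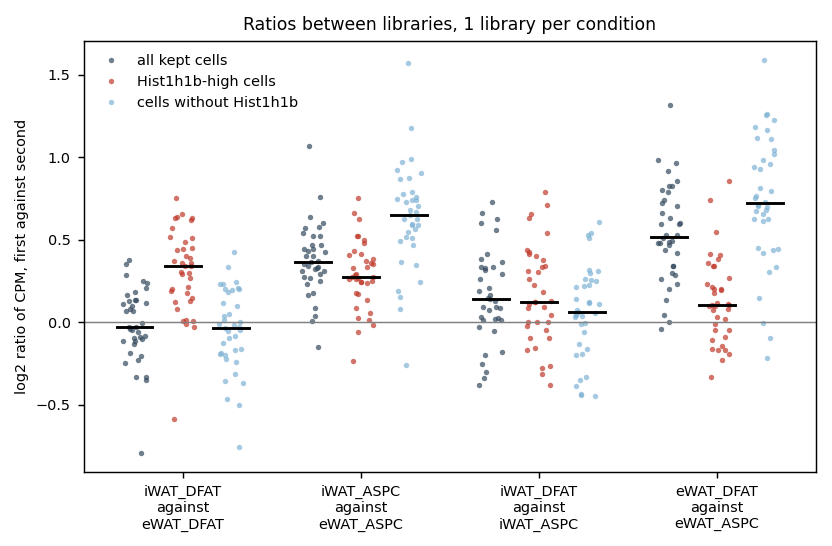
Points are genes, the vertical axis is the log2 ratio of CPM of the first library to the second, and black bars are medians, over all kept cells (dark), Hist1h1b-high cells (red) and cells without Hist1h1b (light blue). For eWAT_DFAT against eWAT_ASPC the medians are 0.52, 0.10 and 0.72.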

How the data were processed

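Cultured DFAT and SVF cells of both depots were sorted as live (7-AAD) and run as droplet 3′ single-cell libraries. The authors aligned reads to mm10 and deposited unfiltered UMI counts per gene and barcode, with introns counted per the study's methods. The labels name Cell Ranger 7.0.0, while the file headers give 7.1.0 for 3 libraries and another version for iWAT_ASPC, so the version and setting of each library are uncertain. The study's later steps (ambient RNA removal, doublet calling) come after the deposited counts and were not repeated. Counts were summed per library and class of cells (8 sums, or 12 with mitosis-high cells) and tested with edgeR 4.0.16 in R 4.3.3 (filterByExpr, TMM, quasi-likelihood, library as a block, Benjamini-Hochberg over all genes). DESeq2 1.42.0 was an alternative. A call needed an adjusted p under 0.05, and at least 2-fold for *Hist1h1b*-high cells. Library ratios are of CPM over all kept cells (183664704 to 199357348 UMIs per library, of 211396227 to 242282812 over all barcodes), with exact conditional binomial 95% intervals. The log2 ratios of class sums used a prior count of 0.5. Scrublet's own threshold marked at most 0.044% of cells and was not used. Fits were tested on simulated data. The members, gene lists, motifs and thresholds were chosen with earlier results of these data known. Genes named in full are the 6 largest and 6 smallest ratios in *Hist1h1b*-high cells, the 4 at each end in mitosis-high cells, 2 at each end per library comparison, and a fixed set (*E2f1*, *Ccne1*, *Ccne2*, *Cdc6*, *Cdt1*, *Slbp*, *Pcna*, *Mcm2* to *Mcm7*, *Rrm1*, *Rrm2*, *Pclaf*, *Lig1* and *Fen1*). Others named in the text were added after their values were seen.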

Additional observations from a re-analysis of the deposited data

Results flagged for a closer look

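For 3 genes the DFAT library was lower than the ASPC library of its depot in iWAT and higher in eWAT, with both 95% counting intervals off 0 and a level of at least 5 CPM on one side of each ratio. The log2 ratio of *Chaf1b* was −0.20 in iWAT and 0.53 in eWAT, a difference of −0.73. That of *Rfc3* was −0.30 and 0.30, a difference of −0.60, and that of *Dut* was −0.34 and 0.14, a difference of −0.47. With 1 library per condition these differences were not tested, and the genes were picked for these opposite signs. How many of all genes meet the same limits was not counted. *Ccne2*, *Pole*, *Gins2*, *Rrm1* and *Ung* had ratios of the same 2 signs but missed one of these limits. The gap of *Ccne2* (−0.03 in iWAT and 0.79 in eWAT) had an interval in iWAT that includes 0.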

How the results depend on the processing

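Of the members, 36 to 38 were called at least 2-fold higher in *Hist1h1b*-high cells under every alternative run, 37 without the iWAT_DFAT library and 36 after thinning or with 1 *Hist1h1b* UMI as the limit. The thinned runs, for calls, ratios and shares alike, took 1 or more *Hist1h1b* UMIs after thinning as the class, so depth and limit both changed. Over all genes the count was 575, 553 with DESeq2 and 418 after thinning, and 559 to 632 with 1 library left out. The members' median of 2.17 was 2.03 to 2.28 with 1 library left out, and moved to 1.85 with a limit of 1 *Hist1h1b* UMI and to 1.81 after thinning. The count higher in mitosis-high cells was 32 to 35. Median ratios between libraries moved more. For iWAT_DFAT to eWAT_DFAT the −0.03 was −0.12 as the mean over cells and 0.34 within *Hist1h1b*-high cells. For iWAT_ASPC to eWAT_ASPC the 0.37 was 0.27 with TMM, 0.27 within *Hist1h1b*-high cells and 0.65 within cells with none. For iWAT_DFAT to iWAT_ASPC the 0.14 was 0.064 with TMM, 0.047 as the mean over cells and 0.064 within cells with none. For eWAT_DFAT to eWAT_ASPC the 0.52 was 0.34 with TMM, 0.10 within *Hist1h1b*-high cells and 0.72 within cells with none. The share of *Hist1h1b*-high cells moved to 17.9% (likely doublets removed) and 26.3% (cells of 20000 to 40000 UMIs) in iWAT_DFAT, to 25.4% (thinned), 26.0% (500 UMIs as the lower limit), 26.6% (doublets) and 31.7% (20000 to 40000 UMIs) in eWAT_DFAT, to 17.4%, 17.7% and 23.3% (thinned, 500 UMIs, 20000 to 40000 UMIs) in iWAT_ASPC, and to 19.2% (500 UMIs) in eWAT_ASPC. The causes were not tested. Every single-gene ratio in *Hist1h1b*-high cells that was recomputed stayed above 0 at an adjusted p under 0.05 in edgeR or DESeq2, but *Rrm1* fell below 2-fold without iWAT_DFAT (log2 ratio 0.98), with a limit of 1 *Hist1h1b* UMI (0.89) and after thinning (0.96), and *Dut* under the last 2 of these (0.91 and 0.97). The median of iWAT_DFAT to eWAT_DFAT, near 0, was the value that changed sign. With 1 library per condition, no comparison had replicate pairs. For its test of adipogenic potential the paper describes taking adipocytes and SVF cells side by side from the same depots. Whether these libraries came from the same animals was not found. A fit of cell source with depot as a block, which leaves 1 residual degree of freedom, was possible but was not run. The comparisons of cell classes within libraries have the library as a block. Depth limits *Ung* most, which had 7 UMIs in the mitosis-high cells of iWAT_DFAT and of eWAT_ASPC. The direct comparison of *Hist1h1b*-high with mitosis-high cells was added after seeing the data, and without replicate cultures the depots and cell sources cannot be told apart from single cultures.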
